A study of Schizosaccharomyces pombe with 6 samples.

Results

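RNAs that were detected in total RNA and were enriched in every purification of the fission yeast MTREC complex were examined on strand-specific tiling arrays. The arrays were divided into 14700 windows of 10 consecutive same-strand probes, and 3777 of these windows had at least 8 probes whose input signal was well above background on all 6 arrays. Of those, 161 windows had a log2 ratio of IP over input of 0.5 or more (at least 1.41-fold) on each of the 6 arrays, which is 4.26% of the input-detected windows. Without the requirement on the input, 2658 windows (18.1% of all) had such ratios. Merging adjoining windows gave 134 loci, 61 on the odd-numbered and 73 on the even-numbered probes, which were read as opposite strands. Because the ratios chose these loci, their own ratios are a description and were not tested.

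The complex was purified from Schizosaccharomyces pombe strains that carried a C-terminal Flag, TEV and protein A tag (FTP) on Red1 (strain p919), Mtl1 (strain p920) or Red5 (strain p1160), each grown in rich medium and otherwise untreated, with 2 biological replicates per bait. On each array Cy5 marked the RNA from the tandem purification (IP) and Cy3 the unpurified total RNA of that strain (input). A purification without a tag was not analysed here and every array had the same dye orientation, so an effect of the dyes or of the beads that is alike on all 6 arrays cannot be told apart from binding. Replicate 1 of all 3 baits shared slide 1. The second replicates of Red1-FTP and of Red5-FTP shared slide 2, and that of Mtl1-FTP was alone on slide 3. By the paper's strain list, the Red5-FTP strain also differed from the Red1-FTP and Mtl1-FTP strains in mating type and ade6 allele. Contrasts with Red5-FTP thus cannot tell the bait from the strain background.

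MTREC is a nuclear complex that hands RNAs to the exosome, the 3′ to 5′ RNA-degrading machine of the nucleus. Mtl1 is its RNA helicase, a relative of Mtr4, and forms a core with the zinc-finger protein Red1. Red5 is a further zinc-finger subunit. Known targets of the complex are cryptic unstable transcripts, unspliced pre-mRNAs and mRNAs of meiotic genes that are transcribed in growing cells. Such RNAs are usually scarce in total RNA, and the loci described here are those with enough input signal to give a measured value in both channels. No source used here links a probe to a gene, a position or a sequence, so the loci are named by their first probe, no sequence is shown, and which transcripts they belong to is not known here.

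The ratios of the loci ranged from just over the threshold to more than 10-fold. The mean log2 ratio over the 6 arrays had a median of 1.23 across the 134 loci (2.35-fold), with quartiles of 0.94 and 1.87 and extremes of 0.63 and 4.28. It was 1 or more at 92 loci, 2 or more at 29 and 3 or more at 5. The lowest of the 6 arrays still read 1 or more at 43 loci and 2 or more at 12, whereas no locus had 3 or more on every array. All ratios are relative to the median probe of each array, which was set to 0. An array averages a whole culture, so binding in few cells and weak binding in all cells cannot be told apart.

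The locus with the highest mean was sp40c_33201, a single window on the odd-numbered strand. Its log2 ratios were 4.61 and 5.05 on the Red1-FTP arrays (replicates 1 and 2), 4.41 and 4.58 on the Mtl1-FTP arrays, and 2.96 and 4.09 on the Red5-FTP arrays. The mean was 4.28 ± 0.72 (SD, n = 6 arrays), which corresponds to 19.5-fold on the linear scale, from 7.76-fold on the lowest array to 33.0-fold on the highest. Both Red5-FTP arrays lay below the 4 arrays of the other baits. Input and IP were both well above background at all 10 probes, and their mean ratios ranged from 2.40 to 5.01. With gaps of at most 1 probe, the stretch of probes at or above 0.5 around the window was 21 probes long.

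Locus sp40c_9302 covered 2 windows and came second. Its log2 ratios were 4.23 and 4.41 for Red1-FTP, 2.97 and 2.96 for Mtl1-FTP, and 3.09 and 4.75 for Red5-FTP, with a mean of 3.74 ± 0.82 (SD, n = 6). The Red5-FTP replicates were here the highest and the third lowest of the 6 values, so the spread within that bait was nearly as wide as the whole range. Locus sp40c_13522 read 3.80 and 3.69 in the Red1-FTP purifications, 3.21 and 2.67 in those of Mtl1-FTP, and 2.27 and 3.81 in those of Red5-FTP (mean 3.24 ± 0.65). In these first 3 loci replicate 2 of Red5-FTP was above replicate 1 by more than 1 log2 unit.

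The order of the baits differed at sp40c_107102, where Red5-FTP had the highest bait mean (3.63, against 2.90 for Red1-FTP and 2.75 for Mtl1-FTP). The arrays there read 3.68 and 2.13 for Red1-FTP, 2.56 and 2.93 for Mtl1-FTP, and 3.94 and 3.32 for Red5-FTP (mean 3.09 ± 0.69). This window was also narrow, since the windows on either side had ratios of 0.37 and 0.49, and its stretch of probes at or above 0.5 was 14 probes long. Locus sp40c_101402 had the tightest values among the first 5, with 3.13 and 3.74 for Red1-FTP, 3.10 and 2.80 for Mtl1-FTP, and 2.64 and 2.66 for Red5-FTP (mean 3.01 ± 0.42).

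The next 3 loci had means between 2.87 and 2.94, and their arrays overlapped widely. The log2 ratios at sp40c_123702 were 3.26 and 3.54 (Red1-FTP), 2.73 and 2.91 (Mtl1-FTP), and 1.72 and 3.47 (Red5-FTP). At sp40c_125761 they were 3.29 and 3.64, 3.10 and 2.47, and 2.25 and 2.48 in the same order, and at sp40c_44062 they were 3.20 and 3.75, 2.69 and 2.90, and 1.86 and 2.80. In each of the 3 loci Red1-FTP had the highest mean and replicate 1 of Red5-FTP the lowest array. The mean of sp40c_44062 covers unlike probes. Its last probes, sp40c_44094 to sp40c_44100, had mean ratios of −0.47, 0.06, 0.17 and 0.15, whereas its other probes had 2.16 to 4.19. The mean of sp40c_125761 came from one of the dimmest inputs of all loci (6.66 in log2 signal, against 10.9 at sp40c_33201), with 8 of its 10 probes detected in the input on all arrays and 10 in the IP.

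**Figure D1:**
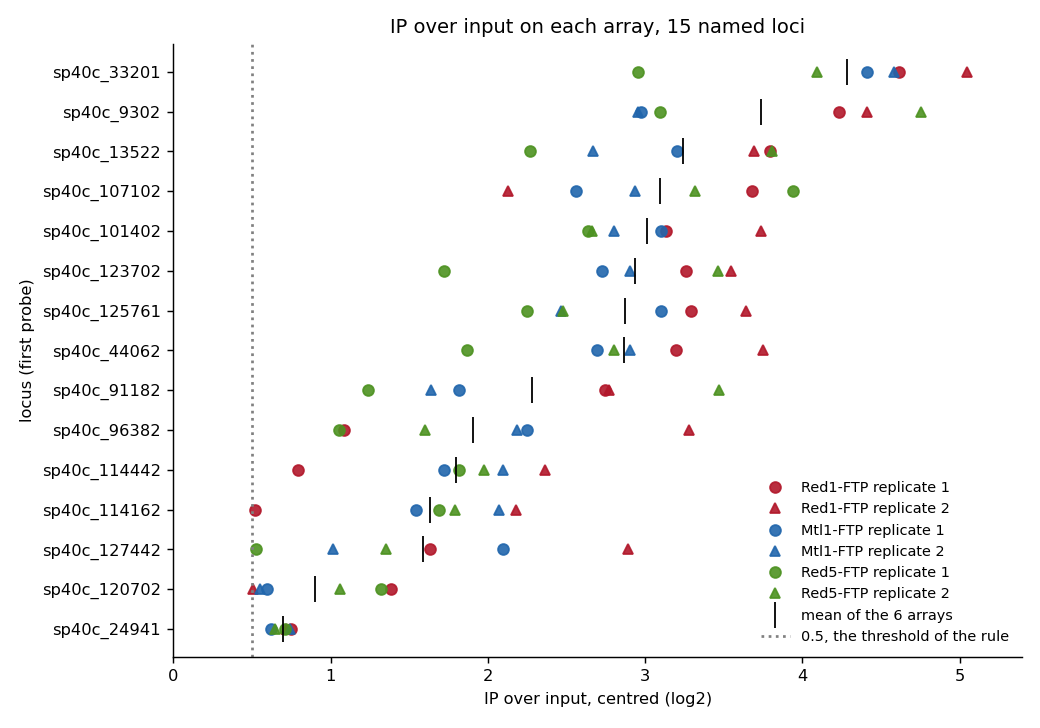
Log2 ratio of IP over input on each of the 6 arrays (x axis) for 15 loci (y axis, named by the first probe), with circles for replicate 1, triangles for replicate 2, a black bar for the mean of the 6 arrays and a dotted line at the threshold of 0.5. The 8 loci at the top have means of 2.87 to 4.28, and sp40c_24941 at the bottom holds all 6 arrays between 0.62 and 0.75.

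Most loci held few windows. A locus ends where the input is no longer detected, so its number of windows need not be the length of an RNA. Of the loci, 60 filled a run of 1 input-detected window and could not be longer under the rule. A single window made up 110 loci, 2 windows made up 22, and only 1 locus each had 3 and 4 windows. The longest, sp40c_91182, spanned 40 probes, of which 39 were detected in the input on all arrays and 40 had positive ratios on all arrays. Its log2 ratios were 2.74 and 2.77 for Red1-FTP, 1.82 and 1.64 for Mtl1-FTP, and 1.24 and 3.47 for Red5-FTP (mean 2.28 ± 0.85), so that Red5-FTP held both the lowest and the highest array. Probes at or above 0.5 continued on both sides to a stretch of 95 probes. The locus of 3 windows, sp40c_96382, had ratios of 1.08 and 3.28 (Red1-FTP), 2.25 and 2.18 (Mtl1-FTP), and 1.05 and 1.60 (Red5-FTP) (mean 1.91 ± 0.85), and lay inside a run of 8 input-detected windows of which the other 5 did not meet the rule. The median stretch of probes at or above 0.5 around a locus was 22.5 probes, and 76 loci had a stretch of more than 20 probes.

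The spread over the 6 arrays was as wide for these windows as elsewhere. The range between the highest and the lowest array had a median of 0.858 in the 161 windows and 0.859 in the other 3616 input-detected windows. Among the loci it went from 0.13 to 2.37. The narrowest was sp40c_24941, with 0.75 and 0.72 for Red1-FTP, 0.62 and 0.74 for Mtl1-FTP, and 0.71 and 0.64 for Red5-FTP (mean 0.70 ± 0.05), a 1.62-fold excess that hardly varied. The widest was sp40c_127442, with 1.63 and 2.89, 2.10 and 1.02, and 0.53 and 1.35 in the same order (mean 1.59 ± 0.83). Its replicates differed within every bait by more than the steps between the ordered bait means of 2.26, 1.56 and 0.94.

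The threshold cut through a continuous distribution. Of the input-detected windows, 85 reached 0.5 on 5 arrays and 113 on 4, against 161 on all 6 and 2572 on none. Just inside the threshold lay sp40c_92082 (lowest array 0.503, mean of the arrays 1.46), sp40c_65622 (lowest 0.5035, mean 0.88) and sp40c_120702 (lowest 0.5049, mean 0.90). Just outside lay sp40c_114022 (lowest 0.4985, mean 1.66), sp40c_115742 (lowest 0.4966, mean 0.64) and sp40c_45421 (lowest 0.494, mean 0.72). A window on either side of the threshold could therefore have a mean well above it, with 1 low array setting its place.

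The window means were carried by most of their probes. Of the 1610 probes in the loci, 87.7% had a positive ratio on all 6 arrays and 63.7% were at 0.5 or more on all 6. All 10 probes were positive on every array in 75 windows and at least 8 were in 130, whereas 9 windows had 5 or fewer. The window median, which a few bright probes cannot move, was at 0.5 or more on all arrays in 125 of the 161 windows and below 0 on some array in 3. The extreme case was sp40c_57142, chosen after its values were seen, whose mean was 2.01 but whose median was 0.34, because 4 of its probes were over the threshold and the probe means ran from −0.44 to 5.50.

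Repeated printing gave the technical error of single probes. The 4 probes of the loci that were also printed in 6 further copies had mean log2 ratios of 1.07 (copies 1.07), 0.67 (0.68), 0.23 (0.25) and 2.12 (2.14), so copies and single spots gave nearly the same values. The SD among the copies on an array had medians of 0.05 to 0.11 for these probes. Over the 6 arrays the copies ran from 0.80 to 1.32 for sp40c_5243 in locus sp40c_5241, and from 0.62 to 0.75 for sp40c_24941. The probe at 0.23, sp40c_26724, belonged to a locus with a mean of 1.14. Probes of that window differed from each other by more than the printing error.

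Enrichment on every array was not confined to the brightest inputs. The mean input signal of the 161 windows had a median of 8.30 in log2, against 8.47 for the other input-detected windows, and 73 of the 161 were above the median of all input-detected windows. Their IP signal had a median of 9.72 against 8.09, and 149 were above the median of all, a difference that the rule builds in. In deciles of the input signal, the share of windows enriched on every array was 6.88% in the lowest decile, 2.39% in the sixth and 6.08% in the highest. That highest decile began at 10.5 and held 23 of the 161 windows. It took in all 10 enriched windows of a block of bright input described below, whose inputs ran from 11.6 to 15.8. Signals of different probes also depend on the probes themselves, so these deciles order signals and not RNA amounts.

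**Figure D2:**
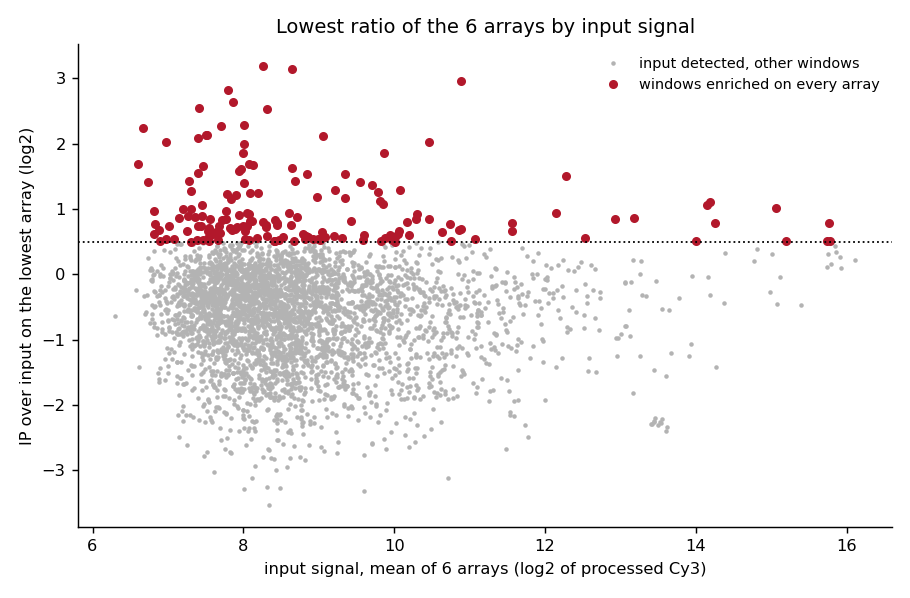
Ratio on the lowest of the 6 arrays (y axis, log2 of IP over input) against the mean input signal (x axis, log2 of the processed Cy3 signal) for the 3777 input-detected windows, with the 161 windows enriched on every array in red and the threshold of 0.5 dotted. The red points span the whole range of input signals, with a median of 8.30 against 8.47 for the grey points.

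The 3 loci with the highest input were bright in both channels. Locus sp40c_114162, with an input of 15.8 in log2 signal, read 0.52 and 2.18 for Red1-FTP, 1.54 and 2.07 for Mtl1-FTP, and 1.69 and 1.79 for Red5-FTP (mean 1.63 ± 0.59). Locus sp40c_114442, also at 15.8, read 0.79 and 2.37, 1.72 and 2.09, and 1.82 and 1.97 in the same order (mean 1.79 ± 0.54). In both, replicate 1 of Red1-FTP was the lowest array by more than 0.9, and the other 5 arrays lay together. No probe of any locus was saturated on any array.

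The third, sp40c_120702, had an input of 15.2 and log2 ratios of 1.39 and 0.50 for Red1-FTP, 0.60 and 0.55 for Mtl1-FTP, and 1.32 and 1.06 for Red5-FTP (mean 0.90 ± 0.40). Here replicate 1 of Red1-FTP was the highest array instead. The window on the other strand at the same place, sp40c_120701, was also enriched on every array, with 2.44 and 2.59 for Red1-FTP, 2.30 and 2.03 for Mtl1-FTP, and 2.47 and 2.08 for Red5-FTP (mean 2.32 ± 0.23). This was the only place where windows of both strands met the rule.

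Loci sp40c_114162 and sp40c_114442 belonged to a block of very bright input on the even-numbered strand that held 8 loci and 10 of the 161 windows. The input profile of this block repeated itself: probes 272 numbers apart had input signals that correlated at r = 0.980 over 130 probes, the highest of 491 distances searched, against 0.945 and 0.928 at the distances next to it. The ratios of the same probes correlated at r = 0.914. Neighbouring probes share their RNA, so these correlations describe the likeness of the profiles and nothing more. Whether the probes of the repeated units match the same sequence was not tested. The 8 loci are therefore not shown to be separate RNAs, and neither are sp40c_114162 and sp40c_114442.

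Within the block 1 array stood apart. In its 10 enriched windows the median log2 ratio was 0.74 on replicate 1 of Red1-FTP, against 2.20 on replicate 2 of Red1-FTP, 1.72 and 2.31 on the Mtl1-FTP arrays, and 1.57 and 1.97 on the Red5-FTP arrays. Replicate 1 of Red1-FTP was the lowest array in 9 of the 10 windows. In the 151 enriched windows outside the block it was not low, with a median of 1.45 against 1.11 to 1.21 on the other arrays. The other 12 input-detected windows of the block were at 0.5 or more on 5 arrays and missed the rule through replicate 1 of Red1-FTP alone. Leaving that array out raised the number of enriched windows from 161 to 183. All 161 are among them by construction, because leaving out an array only relaxes the rule.

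**Figure D3:**
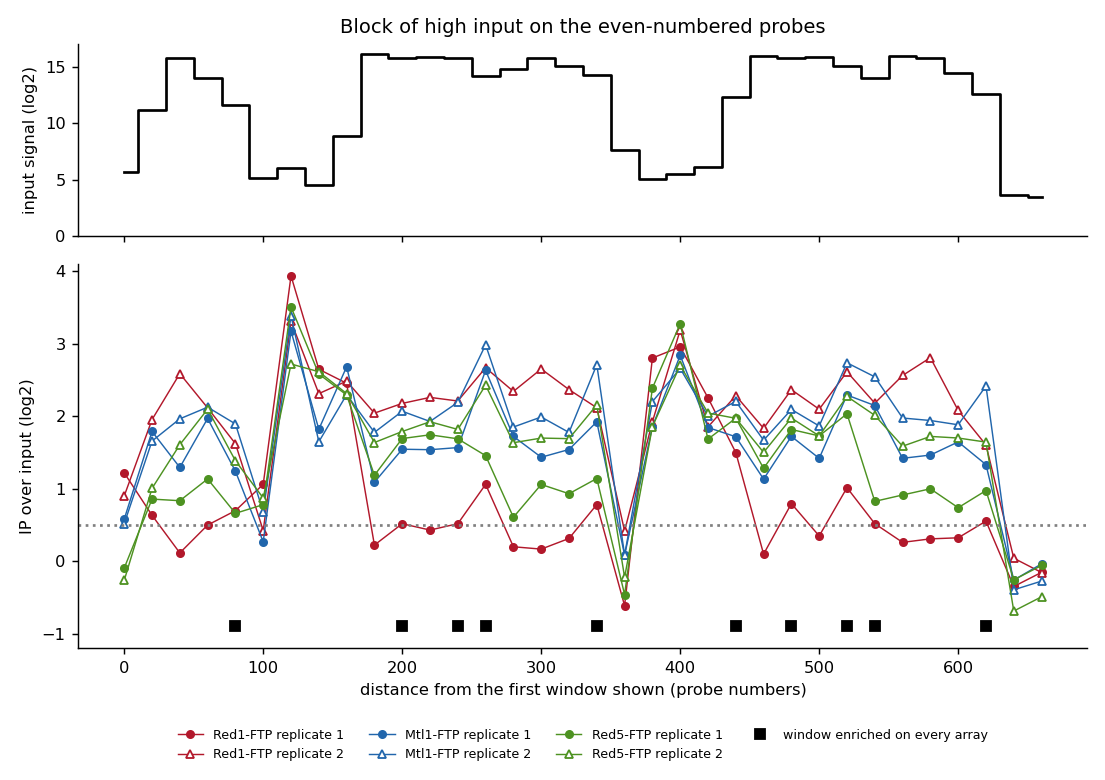
Mean input signal (top, log2) and log2 ratio of IP over input on each array (bottom) in consecutive windows along the block of bright input, by distance from the first window shown in probe numbers, with black squares under the windows enriched on every array and a dotted line at 0.5. Bright units recur, and in them replicate 1 of Red1-FTP (filled red circles) runs below the other 5 arrays, with a median of 0.74 in the enriched windows.

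Among runs of input-detected windows, those of 1 window and longer ones held a locus about equally often. Of 1796 such runs 128 held a locus (7.13%), which was so for 60 of 787 runs of 1 window (7.62%) and 68 of 1009 longer runs (6.74%). In 74 cases the locus filled its whole run, and 60 of these were the runs of 1 window, where it cannot do otherwise. The share of windows enriched on every array was 7.62% in runs of 1 window, 4.11% in runs of 2 to 3 and 1.51% in runs of 4 to 7. It was 7.89% in runs of 8 or more, where 12 of 152 windows met the rule. All 12 of these belonged to the block of bright input or to locus sp40c_96382. Runs of 3 or more windows also had unequal ends. On the odd-numbered strand 8 of 254 windows at the lower-numbered end met the rule (3.15%) and 3 of 254 at the higher-numbered end (1.18%), whereas on the even-numbered strand the counts were 2 of 230 (0.87%) and 11 of 230 (4.78%). These are small counts, they follow from the rule's own ratios, and they were not tested.

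Along the probe numbers the enriched windows were present in every part of the tiled series. In 7 equal stretches of probe numbers there were 28, 21, 24, 12, 26, 41 and 9 enriched windows, or between 1.79% and 7.98% of the input-detected windows. The highest share lay in the sixth stretch, which contains the block of bright input. The median distance between neighbouring loci was 641 probe numbers.

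The windows next to the loci, which had not met the rule themselves, gave a measure on other probes. A window was called enriched where limma's test of the mean ratio over the 3 baits, adjusted over all 14700 windows, gave an adjusted p under 0.05 in the positive direction, which 43.1% of all windows and 22.1% of the input-detected windows did. Of the 134 windows just below the loci on the same strand 110 were called enriched (82.1%), and of those just above 108 were (80.6%). Beside the other input-detected windows the shares were 25.1% and 25.7%. Their median log2 ratios were 0.81 and 0.77 beside the loci, and −0.07 and −0.06 beside the others. Windows next to a locus were less often detected in the input (35 and 32 of 134, against 53.1% and 53.2% beside the others), but among the detected ones 26 of 35 and 25 of 32 were called, against 14.1% and 14.4%. The ratio then declined with distance, to 0.54 and 0.46 at 2 windows and 0.35 and 0.31 at 3 windows. Neighbouring windows can hold the same RNA and are not independent of the loci.

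The windows opposite the loci were mostly not detected in the input, so that their ratios rest largely on input signals near background. Of the 10 probes a median of 2 were detected. The 161 opposite windows had a median log2 ratio of 1.05, from 0.90 on replicate 1 of Red5-FTP to 1.32 on replicate 2 of Red1-FTP. Of these, 128 were called enriched (79.5%) and 5 depleted (17.7% of all windows were), against 51.1% enriched opposite the other input-detected windows, where the median was 0.34. At 64 of the 161 windows the opposite strand had the higher mean ratio. Only 29 of the opposite windows were input-detected themselves.

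The opposite windows were therefore divided by how many of their own probes were detected, and the difference between these classes was not tested. Where at most 2 of its 10 probes were detected in the input, 85.4% of 89 opposite windows were called enriched, against 50.4% of 2802 beside the other input-detected windows. With 3 to 7 detected probes the shares were 93.0% of 43 and 55.9% of 649. Where 8 or more probes were detected, 12 of 29 (41.4%) were called, against 71 of 165 (43.0%), and the medians were 0.26 and 0.16. The locus with the highest mean shows the weakly measured case, since the window opposite sp40c_33201 had a mean ratio of 2.39 with no probe detected in the input, and its arrays ran from 0.50 to 4.16. Opposite sp40c_101402 and sp40c_125761 all 10 probes were detected, and the mean ratios were 0.21 and 0.14.

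**Figure D4:**
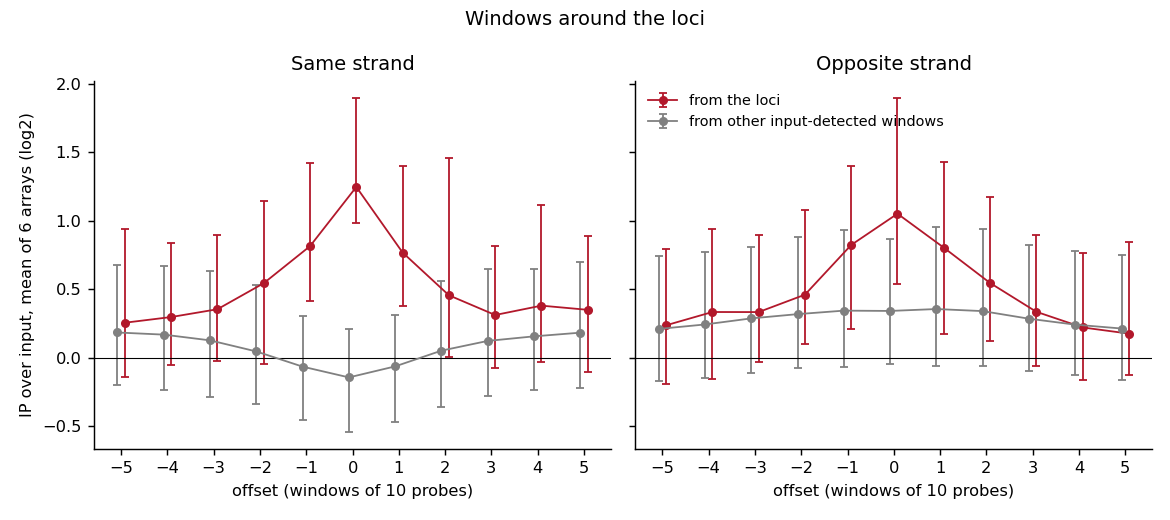
Median (points) and quartiles (bars) of the log2 ratio of IP over input, mean of 6 arrays, in windows at offsets of −5 to 5 from the loci (red) and from the other input-detected windows (grey), on the same strand (left) and on the opposite strand (right); offset 0 on the left holds the ratios that chose the loci. On the same strand the red median falls from 0.81 and 0.77 at the adjoining windows to 0.35 and 0.31 at 3 windows, and at offset 0 of the opposite strand it is 1.05 against 0.34.

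Selections on part of the arrays were used to see whether the ratios repeated on the arrays left aside. These selections are not the loci, which were chosen on all arrays. Every array had the same probes and dye orientation. A probe or dye effect alike on all arrays would therefore repeat too, and binding was not tested in this way. When windows were selected on the input and the ratios of the 3 arrays of replicate 1 alone, 266 met the rule, and 169 of them (63.5%) were at 0.5 or more on all 3 arrays of replicate 2. The background share was 5.38% of the 3864 windows detected on the replicate 1 arrays. This share and the next include the selected windows that held. In the reverse direction 274 windows were selected on replicate 2 and 228 of them (83.2%) held on replicate 1, against 7.99% of 4395. The median ratio of the selected windows went from 1.06 to 0.85 on the arrays left aside in the first case and from 1.30 to 1.25 in the second. No selected window was below 0 on all 3 arrays left aside.

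The 3 baits were then compared at the loci. All groups have 2 arrays, and 3 contrasts were fitted with limma on all 14700 windows, without a term for the slide. None of the 161 windows differed between any 2 baits at an adjusted p under 0.05. Over all windows 6 did for Red1-FTP against Mtl1-FTP (0.0408%), 0 for Red1-FTP against Red5-FTP (0%) and 7 for Mtl1-FTP against Red5-FTP (0.0476%). At an unadjusted p under 0.05 the counts in the loci were 11 (6.83%, against 5.86% of all windows), 19 (11.8%, against 4.97%) and 7 (4.35%, against 6.65%). Of the first, 11 were higher with Red1-FTP, of the second 17 were higher with Red1-FTP and 2 with Red5-FTP, and of the last 4 were higher with Mtl1-FTP and 3 with Red5-FTP. With 2 arrays per bait, differences between baits smaller than the replicate spread were not detectable.

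The lowest adjusted p belonged to sp40c_112122, named after its values were seen. Its log2 ratios were 2.79 and 2.47 for Red1-FTP, 1.71 and 1.42 for Mtl1-FTP, and 3.13 and 3.42 for Red5-FTP, so the baits did not overlap. Mtl1-FTP was below Red5-FTP by 1.71 (SE 0.27), with an adjusted p of 0.153 by limma. The same locus had the lowest adjusted p for Red1-FTP against Mtl1-FTP, at a difference of 1.06 (SE 0.27, adjusted p 0.666).

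Red1-FTP had the highest bait mean at 69 of the 134 loci (51.5%, against 47.6% of the input-detected windows), Mtl1-FTP at 36 (26.9%, against 24.2%) and Red5-FTP at 29 (21.6%, against 28.3%). The lowest mean was that of Red5-FTP at 58 loci (43.3%, against 48.2%), Mtl1-FTP at 50 (37.3%, against 33.3%) and Red1-FTP at 26 (19.4%, against 18.5%). By these counts of highest and lowest means, the order of the baits at the loci was near that of the input-detected windows in general. Counts that require both arrays of a bait to agree, given below, departed more. The medians of the bait means were 1.27, 1.24 and 1.20. Both arrays of Red1-FTP lay above the other 4 arrays at 16 loci (11.9%, against 6.86% of the input-detected windows), both arrays of Mtl1-FTP at 7 (5.22%, against 6.17%) and both arrays of Red5-FTP at 6 (4.48%, against 9.03%). Both arrays lay below the other 4 at 1 locus for Red1-FTP (0.75%, against 4.05%), at 12 for Mtl1-FTP (8.96%, against 6.06%) and at 19 for Red5-FTP (14.2%, against 6.49%). These shares come from the ratios that chose the loci and were not tested. Between replicates of a bait the median absolute gap at a locus was 0.37 for Red1-FTP, 0.21 for Mtl1-FTP and 0.34 for Red5-FTP.

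Slide 1 gave within-batch values for all 3 contrasts and slide 2 for Red1-FTP against Red5-FTP. On slide 1 Red1-FTP exceeded Red5-FTP at 94 of 134 loci, with a median difference of 0.15, and on slide 2 at 71 of 134, with a median of 0.04. Over the input-detected windows these median differences were 0.20 and 0.06. The other contrasts, with 1 array per bait on slide 1, departed from the input-detected windows. Red1-FTP exceeded Mtl1-FTP at 92 of 134 loci by a median of 0.23, where the input-detected windows had −0.15. Mtl1-FTP exceeded Red5-FTP at 69 of 134 loci by a median of 0.04, where the input-detected windows had 0.37. Between Red1-FTP and Red5-FTP, Red1-FTP was higher on both slides at 59 loci and Red5-FTP at 28, and the slides had opposite signs at 47. With the slide as a block in the fit, 16 of the 161 windows passed for Red1-FTP against Red5-FTP (15 higher with Red1-FTP, 1 with Red5-FTP), where 4.27% of all windows passed, and 31 for Mtl1-FTP against Red5-FTP (16 higher with Mtl1-FTP, 15 with Red5-FTP), where 15.1% did. None passed for Red1-FTP against Mtl1-FTP, where 0.19% did. That fit leaves 1 residual degree of freedom, and its values for Mtl1-FTP rest on slide 1 alone, because the other Mtl1-FTP array has a slide of its own.

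**Figure D5:**
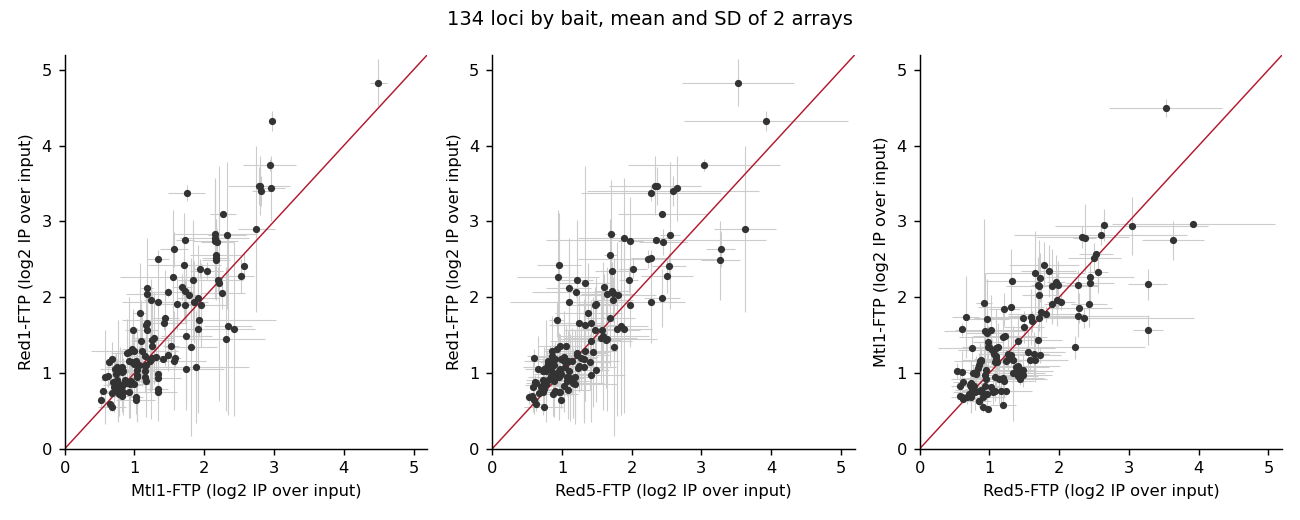
Mean log2 ratio of IP over input at the 134 loci for each pair of baits (points, mean of 2 arrays; bars, SD), with the line of equal values in red. The clouds follow the line, with bait medians of 1.27 for Red1-FTP, 1.24 for Mtl1-FTP and 1.20 for Red5-FTP.

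The likeness of arrays at the loci overlapped within and across baits. The log2 ratios of the 134 loci correlated at r = 0.746 between the Red1-FTP replicates, 0.857 between the Mtl1-FTP replicates and 0.720 between the Red5-FTP replicates. Across baits r ranged from 0.547, between replicate 2 of Red1-FTP and replicate 1 of Red5-FTP, to 0.915, between replicate 2 of Red1-FTP and replicate 1 of Mtl1-FTP. These correlations describe 134 loci chosen to be high on all arrays. Replicate 1 of Red5-FTP was the lowest of the 6 arrays at 38 loci and replicate 2 of Red1-FTP at 33, and replicate 1 of Red1-FTP was the highest at 40.

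The number of loci depended on where the zero of each array was set. Centring on the mean in place of the median lowered all ratios by a median of 0.33 and left 71 windows, and centring on the input-detected windows raised them by 0.12 and gave 214. The 161 windows held 71 of 71 and 161 of 214 of these, respectively. Such overlaps are built in, because each of these shifts had the same sign on all arrays. Across 9 alternatives of signal, centre and window value, 63 of the 161 windows, in 54 loci, were at 0.5 or more on all arrays each time, and 155 were above 0 on all arrays each time. Of the named loci, sp40c_33201, sp40c_9302, sp40c_13522, sp40c_107102, sp40c_101402, sp40c_125761, sp40c_44062 and sp40c_91182 kept every window in all 9, sp40c_123702 kept 1 of 2 and sp40c_96382 2 of 3, whereas sp40c_114162, sp40c_114442, sp40c_120702, sp40c_127442 and sp40c_24941 lost theirs in at least 1.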

How the data were processed

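RNA was measured on 6 custom Agilent 2-colour tiling arrays, 1 per biological replicate. The authors deposited each array's scanner output, which per the labels was made with Agilent Feature Extraction 10.7.3.1. The processed signals in it are intensities that were background-subtracted and dye-normalized before they were deposited. The deposited log ratio is a log10 value with a p-value per spot from the authors' software, and the deposited flags mark spots well above background, saturated or outlying. The deposited value table holds log2 ratios.

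Here, log2 of the processed Cy5 over Cy3 signal was centred on each array's median of non-control spots, without outlier spots, and averaged over windows of 10 probes with numbers up to 147000. Windows were fitted with limma 3.58.1 (R 4.3.3), with 1 mean per bait and Benjamini-Hochberg adjustment over all 14700 windows. The fit was tested on simulated data with independent arrays, which does not cover effects of shared slides. The members, lists and tests were chosen with earlier results of these data known. Loci named are the 8 with the highest mean, the 5 with the most windows (ties by mean), the 3 with the highest input, those with the smallest and largest range, and the windows nearest to the threshold. Replicates were not paired, since the labels do not say that a number marks a shared culture. Array number limits the precision.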

Additional observations from a re-analysis of the deposited data

How the results depend on the processing

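The count of 161 windows in 134 loci moved with the threshold, filter and window: 54 windows in 47 loci at a ratio threshold of 1, 294 in 231 at 0.3, 53 in 47 with all 10 probes detected, 2658 in 1598 without the input filter (18.1% of all windows), 534 in 372 with windows of 5 probes, 45 in 40 with windows of 20, 266 in 224 on replicate 1 and 274 windows on replicate 2. Other signals gave 92 windows in 79 loci before the dye normalization, 91 in 76 from the software's log ratio, 83 in 71 from the value table, 71 in 62 centred on the mean, and 89 loci with normexp. Leaving out 1 array gave 173 to 195 windows in 135 to 157 loci. The remaining alternatives stayed within 1.5 times.

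Bait differences over all windows, in the order Red1-FTP against Mtl1-FTP, Red1-FTP against Red5-FTP and Mtl1-FTP against Red5-FTP, numbered 28, 628 and 2217 where each slide was a fixed term, 11, 1 and 17 with a trended robust variance, and 7, 2 and 13 with the slide as a random block. Fitting input-detected windows alone gave 0, 0 and 2. Signals before the dye normalization, normexp with loess, the value table and window medians gave 0 each. Leaving out 1 array gave 0 to 8 for the first contrast, 0 for the second and 0 to 14 for the last, with 0 in all contrasts without either Mtl1-FTP array. In the enriched windows the count was 0 throughout, except for 16 and 31 where each slide was a fixed term. The replicate number as a block gave 4, 0 and 5 over all windows and 0 in the enriched ones. Deviations of same-numbered replicates correlated at −0.54, 0.67 and −0.55 in the same order of contrasts. The 0.67 belonged to Red1-FTP and Red5-FTP, the only baits that share a slide at both replicate numbers. The main fit does not use that pairing. Because the signs differed between pairs of baits, the numbers were not read as pairs across all baits.

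Fitting input-detected windows alone left 11 of 128 opposite and 46 of 211 adjoining windows called, because most of those windows were then not fitted. Leaving out 1 array gave 123 to 127 opposite and 190 to 206 adjoining windows. Of the 15 loci in the plot of named loci, none changed the sign of its mean under the alternatives of signal, centre and window value or without 1 array, and the means moved by less than their SD over arrays in 215 of 225 cases.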
